A study of Drosophila melanogaster with 26 samples.

Results

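Mitochondrial ribosomal proteins were taken as every feature of the expression table whose name begins with mRpL or mRpS followed by a digit, with no filter on level. There were 72 of them among 14659 features, 46 of the large subunit (mRpL) and 26 of the small subunit (mRpS). All but mRpL53 (71 of 72) had a value above 0 in at least 1 library, 39 had one in every library and 12 had a mean of at least 1. RNA was sequenced after removal of ribosomal RNA from the fat body, the organ of the fly larva that stores fat and glycogen, of female Drosophila melanogaster larvae at the wandering stage, the end of larval life. Larvae were reared on high-sugar food with 0.7 M sucrose or on control food with 0.15 M sucrose. The 26 libraries came from 3 crosses. Males of the VDRC stock w1118 crossed to cg-GAL4 females gave 6 high-sugar and 6 control libraries (w1118 cg), and males of the VDRC stock 60100 crossed to r4-GAL4 females gave 4 high-sugar and 4 control libraries (60100 r4). Males of w1118 crossed to r4-GAL4 females gave 3 high-sugar and 3 control libraries (w1118 r4). Every larva, on either diet, also carried UAS-Dcr2 on the X chromosome, a transgene for the RNase Dicer-2 that the GAL4 line switches on, and was bred as a control for RNA interference lines. The cg driver is active in fat body and in blood cells, and the r4 driver in fat body. Library numbers in the titles fall into 4 sets, 13-21 and 49-54 (both w1118 cg), 55-63 (w1118 r4) and 67-92 (60100 r4, in the runs 67-76 and 83-92). Each set holds both diets. Sets and runs are stretches of library numbers here, and the titles name no batch or sequencing run. The labels say nothing of pooled larvae.

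The mitochondrial ribosome builds the few proteins that mitochondrial DNA encodes, all of them core subunits of the respiratory chain and of ATP synthase. Its RNAs come from mitochondrial DNA, whereas its proteins are encoded in the nucleus, made on cytosolic ribosomes and imported. Many are counterparts of bacterial ribosomal proteins, most of which carry the same number, and the rest are found only in mitochondria. The small subunit reads the messenger RNA, and the large subunit joins the amino acids and holds the exit tunnel, the stalk that binds translation factors and the central protuberance. In the larva, fat body carries out much of the animal's growth metabolism and turns dietary sugar into fat.

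The values are length-scaled expression values that had been divided by the upper quartile of their own library, so that 1 is about the upper quartile. Between 6183 and 8709 features were above 0 in a library. In set 49-54 there were 6500 to 6636 on high sugar and 7086 to 7934 on the control diet, and in set 55-63 there were 6183 to 6625 on high sugar and 7124 to 7538 on the control diet. Summed levels of 8 fat body markers (storage proteins among them) ran from 5286 to 14956, with none at 0 throughout a group. In every library the sums of other tissues were lower, but that of salivary gland was not small in set 13-21. There its 7 markers summed to 2704 to 6045 on high sugar, beside fat body sums of 6946 to 8421. On the control diet they summed to 2177 to 3651, beside fat body sums of 8367 to 9601. Sums of other tissues moved with diet in some sets. In set 49-54 the 5 haemocyte markers summed to 0.282 to 0.619 on high sugar and 6.41 to 8.84 on the control diet. In set 55-63 the 10 midgut markers summed to 1.07 to 3.37 on high sugar, with 4 of them at 0 in every library (LysB, Amy-p, Jon99Ci and LvpH), and to 29.9 to 75.6 on the control diet. The part of other tissues in the values below was not tested. In bulk tissue, fewer cells of a type and less RNA per cell cannot be told apart.

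Transcripts of mitochondrial ribosomal proteins were of middling abundance in fat body. Averaged over the 4 sets, the median member stood at 0.472 of the upper quartile (quartiles 0.333 and 0.730). Averaged over the 26 libraries instead, the median cytosolic ribosomal protein stood at 94.1 (85 genes, 81 of them above 0 in any library). The median nuclear-encoded respiratory chain subunit stood at 2.64 (83 genes, 69 of them above 0 in any library). The 5 highest members were all of the large subunit. They were mRpL36 at 2.41, the mitochondria-only protein mRpL42 at 1.44, mRpL33 at 1.42, mRpL22 at 1.33 and mRpL23 at 1.28. In bacteria the counterparts of mRpL22 and mRpL23 line the exit tunnel, and those of mRpL33 and mRpL36 are very small proteins. At the other end, mRpL53 was listed at 0 in all 26 libraries. In the reference annotation BDGP6, 100% of its exon bases are also exon bases of CG33155. Next came mRpS11 at 0.036, mRpL48 at 0.053, mRpL16 at 0.074 and mRpL45 at 0.163. Depth is unknown, so the error of these levels is the spread between libraries.

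The order of the members was not the same in every set. Spearman's rho between set means over the 72 members was 0.886 between sets 49-54 and 55-63, 0.704 between 13-21 and 49-54, and 0.353 between 13-21 and 67-92. These are descriptions over genes that share a library and its scaling, and each set has its own scale. mRpL36 averaged 0.682 and 0.480 in the w1118 cg sets 13-21 and 49-54, 6.25 in 60100 r4 and 2.23 in w1118 r4. Its 4.60 to 9.50 in 60100 r4 did not overlap its 1.29 to 2.88 in w1118 r4. mRpL33 ran the other way, with 3.17 in set 13-21, 1.21 in set 49-54, 0.384 in 60100 r4 and 0.912 in w1118 r4. Neighbours in the order of levels, such as mRpL42 and mRpL33, did not differ beyond this spread between sets.

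**Figure D1:**
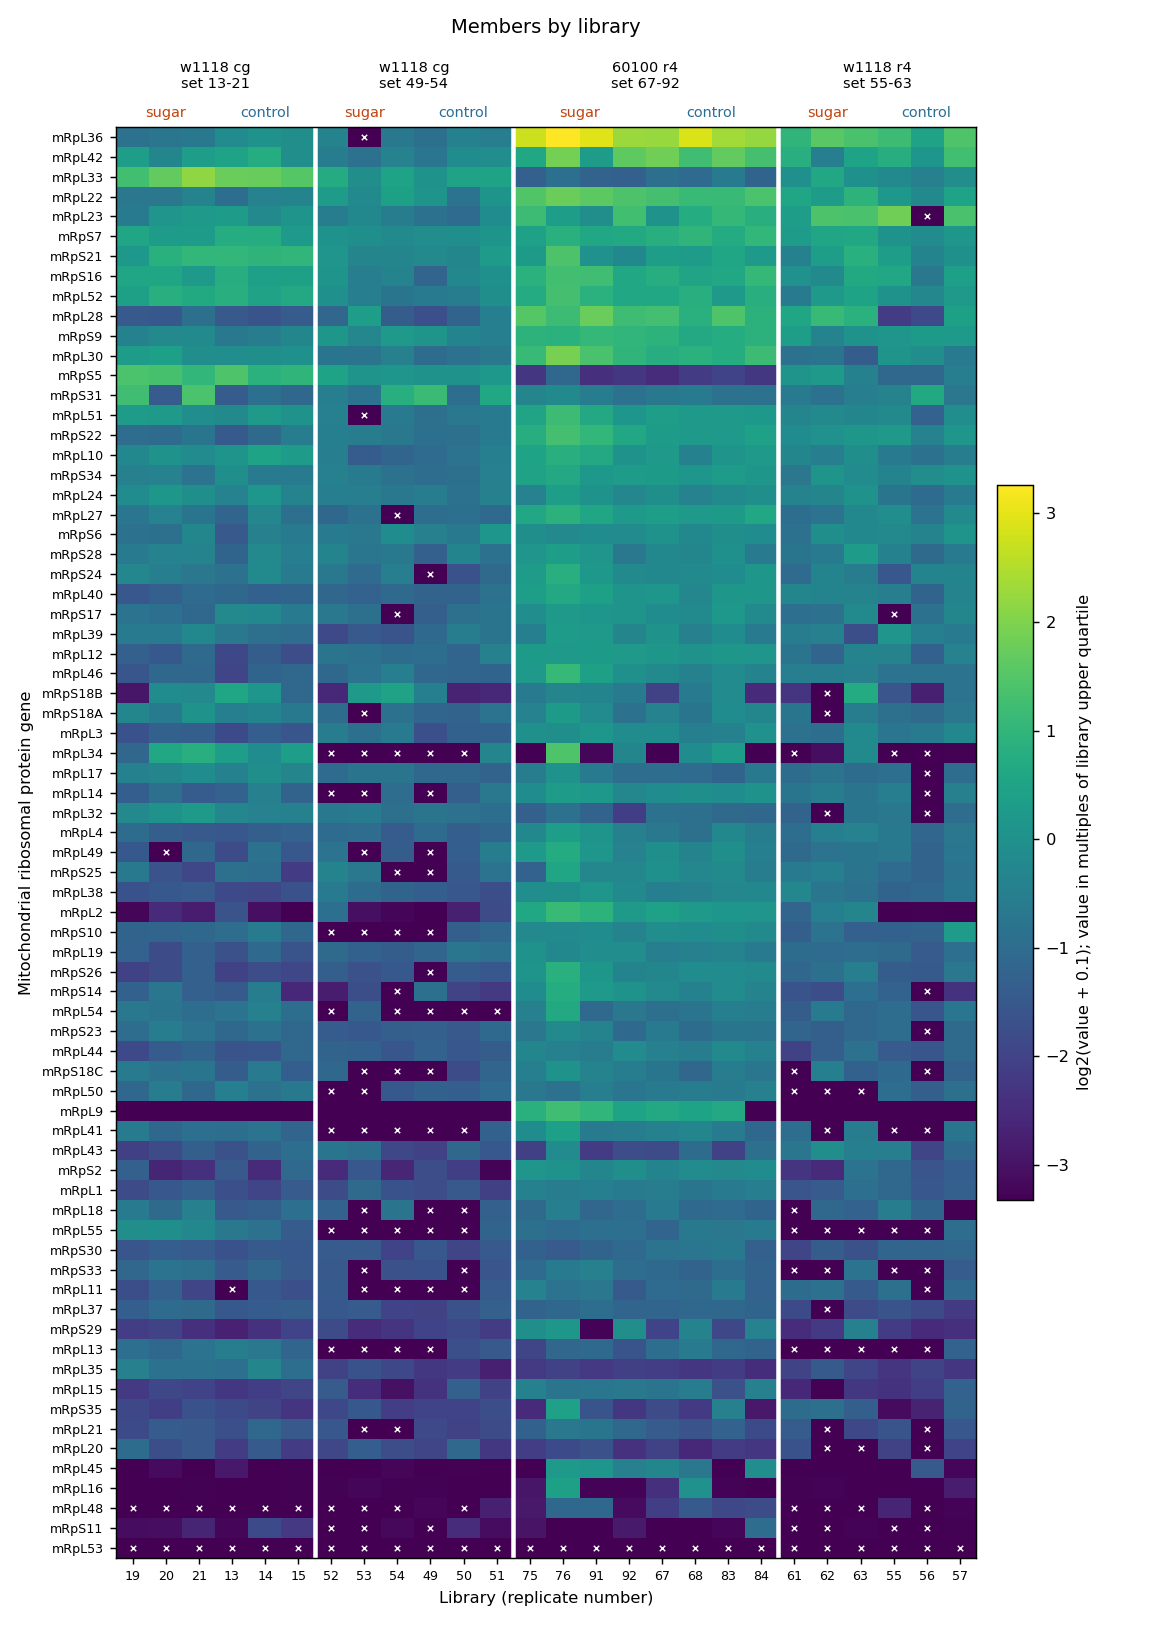
Level of the 72 members (rows, highest mean at the top) in the 26 libraries (columns, by set, high sugar left of control) as a colour scale of log2(value + 0.1), with a white cross where the value is 0. Member medians were 0.691 to 1.1 on high sugar and 0.630 to 0.779 on the control diet in 60100 r4, and at most 0.534 in any w1118 library. These are values as deposited, and each set has its own scale.

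How many members were listed at 0 depended on the set and, within 2 sets, on the library. In set 67-92 every library listed 1 member at 0 (mRpL53), and in set 13-21 there were 2 or 3 per library on either diet. In set 49-54 the high-sugar libraries listed 11, 19 and 15 members at 0 and the control libraries 16, 9 and 2. In set 55-63 the high-sugar libraries listed 10, 14 and 6 and the control libraries 8, 18 and 1. The diets overlapped in each of these sets. A value of 0 can be a failed estimate, and the members at 0 differed between libraries of 1 group, so such values are given per library.

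**Figure D2:**
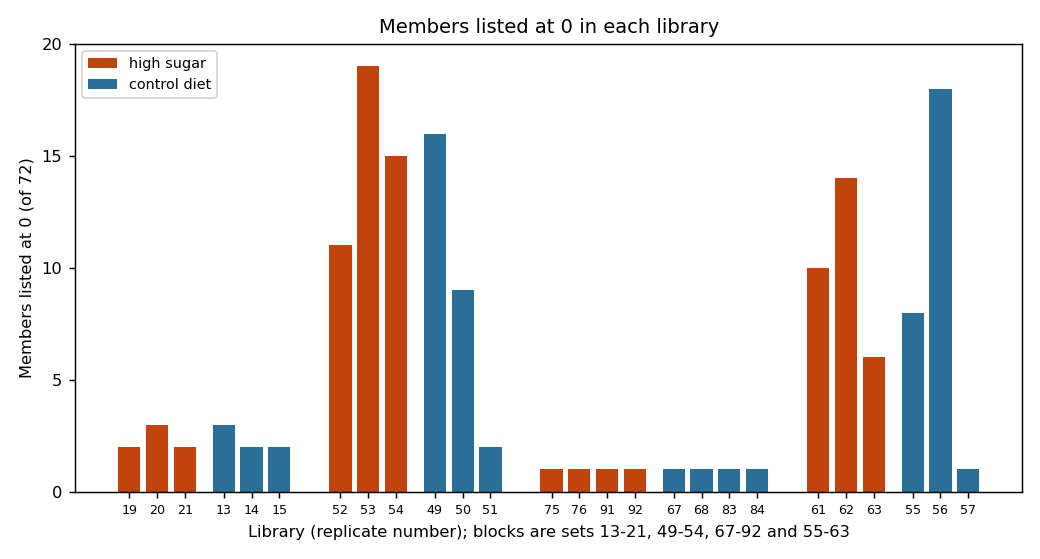
Number of the 72 members listed at 0 (bar height) in each library, in blocks by library set, high sugar left of control. Sets 49-54 and 55-63 ran from 1 to 19 members per library, and set 67-92 had 1 in each.

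The first comparison asked whether sugar changed the members across all sets (limma with library set and diet as terms, on log2(value + 0.1), Benjamini-Hochberg adjustment over 10094 features, threshold 0.05). Of 71 members tested, 2 rose and 2 fell, 5.63% of the members, against 23.1% of all features called (7.69% higher and 15.4% lower). mRpL38 and mRpL46 rose and mRpL50 and mRpL13 fell, all 4 of the large subunit. The members' share was below the share of features called, and the median change was 0.12 over members and -0.08 over all features (log2). Of the members, 45 had a positive and 26 a negative change. At an unadjusted p under 0.05 there were 13 higher and 3 lower, 22.5% of the members and 36.1% of all features. Quantile normalization gave 4 higher and 1 lower, and median-of-ratios scaling 3 and 1. A fold on the log2(value + 0.1) scale understates the change of members this low.

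Both members that rose, mRpL38 and mRpL46, belong in mammals to the central protuberance of the large subunit and have no bacterial counterpart. mRpL38 was at 0.218, 0.250 and 0.268 on high sugar and 0.172, 0.163 and 0.216 on the control diet in set 13-21. In set 49-54 it was at 0.559, 0.402 and 0.338 on high sugar and 0.290, 0.245 and 0.200 on the control diet. The diets did not overlap in either set. In set 67-92 it was at 0.844, 0.877, 0.975 and 0.766 on high sugar and 0.618, 0.625, 0.727 and 0.746 on the control diet, again with no overlap. In w1118 r4 it was at 0.725, 0.499 and 0.445 on high sugar and 0.338, 0.355 and 0.494 on the control diet. There the highest control library stood above the lowest high-sugar library. Across sets mRpL38 was higher by 0.39 ± 0.08 (log2, SE; limma adjusted p = 0.00203), and under each of the 40 alternatives it stayed past the threshold.

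mRpL46 stood at 1.09, 2.03, 1.23 and 0.894 on high sugar and 0.774, 0.645, 0.805 and 0.665 on the control diet in set 67-92. In set 55-63 it stood at 0.607, 0.606 and 0.627 on high sugar and 0.467, 0.467 and 0.474 on the control diet. In both sets every high-sugar library was above every control library. In set 49-54 the values were 0.369, 0.466 and 0.600 on high sugar and 0.365, 0.345 and 0.339 on the control diet, also without overlap, though the nearest libraries were almost level. In set 13-21 they were 0.236, 0.366 and 0.356 on high sugar and 0.158, 0.336 and 0.371 on the control diet, which overlapped. The change across sets was 0.41 ± 0.12 (log2, SE; limma adjusted p = 0.0138), and it no longer passed without set 49-54, 55-63 or 67-92, or with run 83-92 as the only run of 60100 r4 (adjusted p up to 0.162).

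mRpL50, a large-subunit protein found only in mitochondria, fell, and its low values lay in sets 49-54 and 55-63. It was listed at 0 in all 3 high-sugar libraries of set 55-63, against 0.421, 0.298 and 0.442 in its control libraries. In set 49-54 it was at 0, 0 and 0.252 on high sugar and 0.310, 0.294 and 0.390 on the control diet. In neither set did the diets overlap. In set 67-92 it was at 0.526, 0.458, 0.610 and 0.499 on high sugar and 0.539, 0.595, 0.564 and 0.632 on the control diet, with overlap. In set 13-21 it was at 0.365, 0.595 and 0.369 on high sugar and 0.617, 0.456 and 0.534 on the control diet, also with overlap. Across sets it was lower by a log2 change of -0.97 ± 0.23 (SE; limma adjusted p = 0.00523), a size that depends on the added 0.1. Without set 55-63 it no longer passed (0.104).

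mRpL13 is the counterpart of a bacterial protein that binds the large ribosomal RNA early in assembly. It was listed at 0 in all 6 high-sugar libraries of sets 49-54 and 55-63, but also in control libraries of both: these gave 0, 0.207 and 0.259 in set 49-54 and 0, 0 and 0.321 in set 55-63. In set 67-92 it was at 0.161, 0.351, 0.375 and 0.225 on high sugar and 0.416, 0.539, 0.370 and 0.328 on the control diet. In set 13-21 it was at 0.427, 0.366 and 0.473 on high sugar and 0.583, 0.521 and 0.347 on the control diet. The diets overlapped in every set. Its change of -0.60 ± 0.22 (log2, SE; limma adjusted p = 0.0459) did not pass under 26 of 40 alternatives (adjusted p 0.0231 to 0.228). In BDGP6, 35.2% of its exon bases are shared with CG10602 on the same strand.

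The next 4 members by adjusted p did not pass. mRpS22, a small-subunit protein found only in mitochondria, had a change of 0.28 (limma adjusted p = 0.0635) and separated the diets in set 67-92, with 1.62, 2.41, 1.94 and 1.42 on high sugar and 1.15, 1.07, 1.09 and 1.25 on the control diet. In the other sets its diets overlapped. It was at 0.413, 0.395 and 0.486 on high sugar and 0.264, 0.383 and 0.594 on the control diet in set 13-21, and at 0.617, 0.596 and 0.521 on high sugar and 0.432, 0.439 and 0.558 on the control diet in set 49-54. In set 55-63 it was at 0.826, 0.899 and 1.02 on high sugar and 1.06, 0.653 and 1.01 on the control diet. mRpL22, whose bacterial counterpart lines the exit tunnel, separated the diets in the same set. In set 67-92 it had 2.67, 3.35, 2.96 and 2.57 on high sugar and 2.41, 2.09, 2.07 and 2.52 on the control diet. In set 13-21 it had 0.512, 0.512 and 0.675 on high sugar and 0.421, 0.662 and 0.668 on the control diet. In set 49-54 it had 1.16, 0.776 and 1.25 on high sugar and 0.957, 0.468 and 0.961 on the control diet, and in set 55-63 it had 1.35, 1.12 and 1.80 on high sugar and 1.04, 0.787 and 1.31 on the control diet. These 3 sets overlapped. Its change across sets was 0.29 ± 0.11 (log2, SE; limma adjusted p = 0.0747).

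mRpL35 and mRpL28 are counterparts of bacterial large-subunit proteins. mRpL35 separated the diets in set 49-54, at 0.147, 0.218 and 0.167 on high sugar and 0.110, 0.125 and 0.0491 on the control diet. Elsewhere the diets overlapped. In set 13-21 it was at 0.636, 0.457 and 0.458 on high sugar and 0.425, 0.702 and 0.416 on the control diet, and in set 55-63 at 0.156, 0.264 and 0.159 on high sugar and 0.0990, 0.157 and 0.106 on the control diet. In set 67-92 it was at 0.118, 0.141, 0.112 and 0.139 on high sugar and 0.128, 0.104, 0.122 and 0.0812 on the control diet. Its change was 0.26 (log2; limma adjusted p = 0.0639). mRpL28 had 1 of the largest positive changes, 0.71 ± 0.28 (log2, SE; limma adjusted p = 0.0649), and varied widely within groups. It was at 1.40, 2.08 and 1.76 on high sugar and 0.123, 0.175 and 1.24 on the control diet in set 55-63, which did not overlap, and at 0.350, 1.19 and 0.284 on high sugar and 0.204, 0.334 and 0.620 on the control diet in set 49-54. In set 13-21 it was at 0.257, 0.250 and 0.443 on high sugar and 0.258, 0.228 and 0.275 on the control diet, and in set 67-92 at 2.79, 2.17, 3.30 and 2.25 on high sugar and 2.34, 1.72, 2.63 and 1.79 on the control diet. The largest change of all, 0.77 ± 0.32, was that of mRpL2 (limma adjusted p = 0.0811), and after it and mRpL28 came mRpS35 with 0.45 ± 0.29 (0.282). After mRpL50 and mRpL13, mRpS10 had the most negative change, -0.51 ± 0.21 (limma adjusted p = 0.0822).

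**Figure D3:**
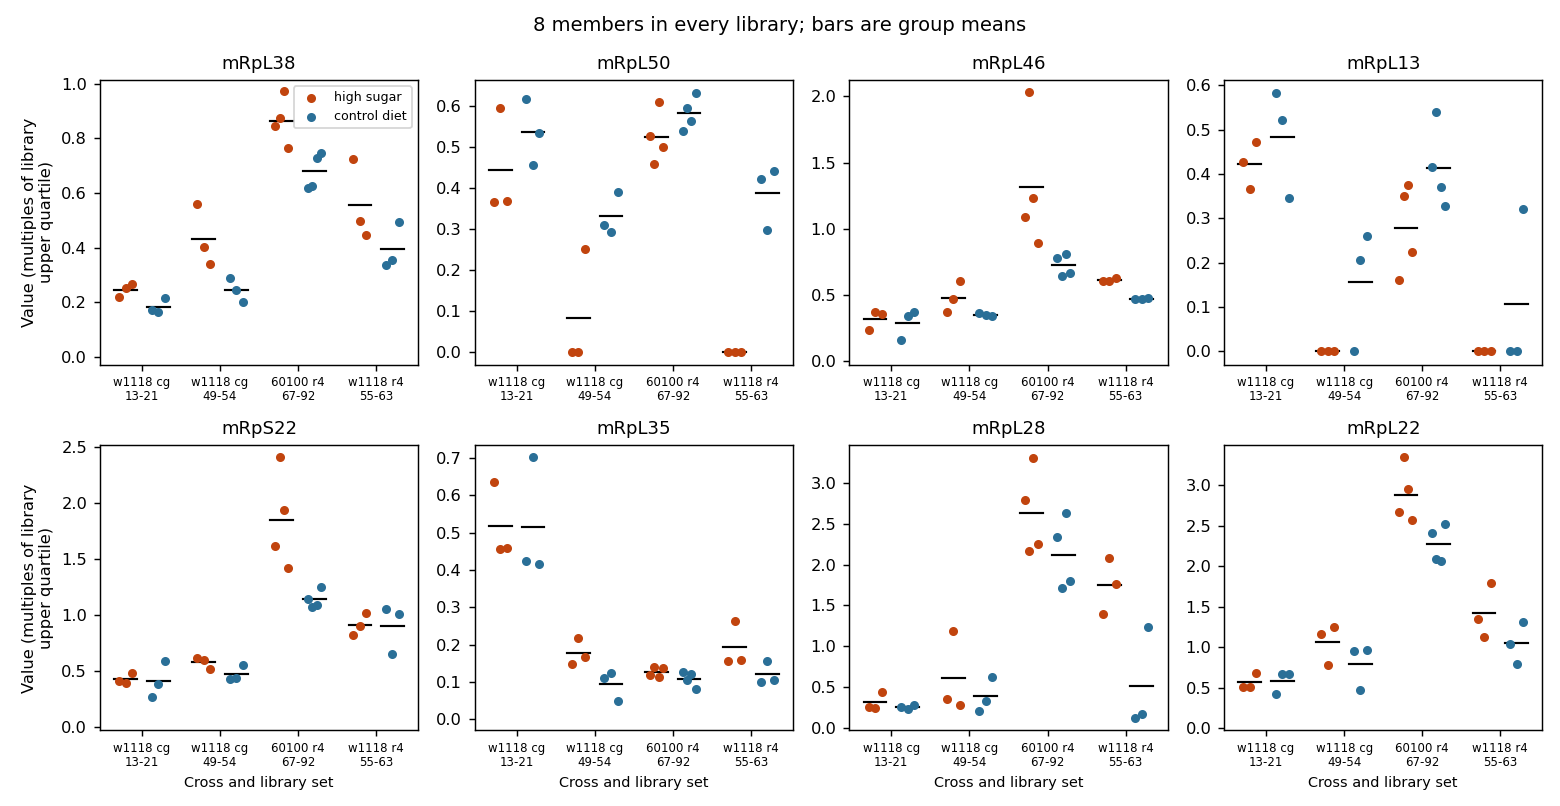
Values in every library (points, multiples of the library's upper quartile, with group means as bars) of the 8 members with the smallest adjusted p for the diet effect across sets, by library set and diet, high sugar left of control. mRpL38 and mRpL46 each separated the diets in 3 of 4 sets, and mRpL50 was at 0 in 5 of the 6 high-sugar libraries of sets 49-54 and 55-63.

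Some members kept 1 direction in every set. A positive change in all 4 sets was seen for 14 members (19.7%, against 7.49% of all features), namely mRpL1, mRpL4, mRpL24, mRpL28, mRpL35, mRpL38, mRpL46, mRpS5, mRpS22, mRpS24, mRpS26, mRpS28, mRpS33 and mRpS35. A negative change in all 4 was seen for mRpL13, mRpL42, mRpL50 and mRpS10 (5.63%, against 10.1% of all features). These are counts, with no test. A feature at 0 throughout a set cannot count as positive or negative there, which lowers the shares of all features. Of 10094 features, 7994 were measured in set 55-63, as were all 71 members tested. Some counted changes were near 0, such as 0.0021 for mRpL1 in set 55-63. In run 83-92 alone, mRpS5 (-0.22), mRpS24 (-0.014) and mRpS35 (-0.28) were negative.

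In set 13-21 no member passed in limma's test, where 4.76% of all features did (1.98% higher and 2.77% lower), and at an unadjusted p under 0.05 there was 1 member, 1.41% against 17.4% of features. That member was mRpS31, a small-subunit protein found only in mitochondria, with 2.25, 0.271 and 2.56 on high sugar and 0.279, 0.426 and 0.356 on the control diet. Its change was 1.56 ± 0.60 (log2, SE; limma adjusted p = 0.174), and 1 high-sugar library stood below all control libraries. The next largest changes were those of mRpL55 (0.86 ± 0.50) and mRpL18 (0.53 ± 0.70), and the smallest those of mRpS18B (-0.96 ± 1.01), mRpL36 (-0.69 ± 0.49) and mRpS17 (-0.59 ± 0.59), none of which passed. Every high-sugar value lay above every control value for 4 of 70 members (mRpL32, mRpL38, mRpL39 and mRpL55; 10.2% of features) and below for 4 (mRpL10, mRpL36, mRpS10 and mRpS17; 8.12% of features). The median change was 0.04 over members and 0.00 over features. Without high-sugar replicate 20, 1 member was called.

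In set 49-54 the same cross gave 3 members higher and 3 lower (8.45% of 71, against 19% of all features, 7.78% higher and 11.2% lower). Quantile normalization gave 4 and 2. mRpL3, whose bacterial counterpart reaches towards the peptidyl transferase centre, had 0.590, 0.439 and 0.539 on high sugar and 0.203, 0.314 and 0.314 on the control diet. It was higher by 0.73 ± 0.20 (log2, SE; limma adjusted p = 0.0127). mRpL38 was higher by 0.61 ± 0.17 (0.0146). mRpS24 had 0.532, 0.394 and 0.602 on high sugar and 0, 0.215 and 0.384 on the control diet, a change of 1.28 ± 0.41 (0.0344). In BDGP6, 55.3% of its exon bases are shared with TBC1d7 on the opposite strand, and strand use in counting is not given in the sources used here.

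Among the 3 that fell in set 49-54, mRpL50 had the smallest p (limma adjusted p = 0.00156). mRpL39, a mitochondria-only protein, had 0.173, 0.257 and 0.225 on high sugar and 0.379, 0.591 and 0.483 on the control diet, a change of -0.87 ± 0.29 (log2, SE; limma adjusted p = 0.0432). mRpS10, whose bacterial counterpart sits in the head of the small subunit, was listed at 0 in all 3 high-sugar libraries and at 0, 0.296 and 0.353 in control libraries (limma adjusted p = 0.0207). mRpS18B (1.31 ± 1.01) and mRpL18 (0.85 ± 0.70) were among the largest changes, and mRpL13, at 0 in all 3 high-sugar libraries, among the smallest, without passing (limma adjusted p = 0.0826 for mRpL13). Groups did not overlap for 6 members above (mRpL3, mRpL17, mRpL35, mRpL38, mRpL46 and mRpS24; 16.1% of features) and 2 below (mRpL39 and mRpL50; 19.9%). Fitted on this set alone, limma called 1 member, mRpL39 (adjusted p = 0.0365), and the call of mRpL50 ended (0.128). With 1 library left out, the call of mRpL3 ended (replicates 49 or 52, adjusted p 0.0691 and 0.0604), as did those of mRpL38 (51 or 52, 0.0793 and 0.106), mRpS24 (49, 52 or 54, 0.0904 to 0.231), mRpL39 (50 to 54, 0.0617 to 0.161) and mRpS10 (50 to 53, 0.0542 to 0.139), while that of mRpL50 stayed. Markers of other tissues moved in the same set. All 5 haemocyte markers fell, with the sums given above, and so did all 7 salivary gland markers, with sums of 5.58 to 18.5 on high sugar and 33.8 to 604 on the control diet. Of 10 midgut markers 3 fell, with sums of 0.459 to 0.979 on high sugar, where 6 were at 0 in every library, and 2.37 to 34.8 on the control diet. Of 9 muscle markers 3 rose and 1 fell. Of 8 fat body markers 4 rose, with sums of 10520 to 12300 on high sugar and 5286 to 7186 on the control diet. The part of these tissues in the members' calls was not tested.

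In set 55-63, the w1118 r4 cross, 5 members rose and 2 fell (9.86% of 71, against 16.9% of all features, 5.91% higher and 10.9% lower). The largest change was that of mRpL2, whose bacterial counterpart is needed for peptide bond formation. It was at 0.345, 0.620 and 0.702 on high sugar and at 0.000868, 0.00281 and 0.000322 on the control diet, so that the controls were near 0 in all 3 libraries. The change was 2.65 ± 0.50 (log2, SE; limma adjusted p = 0.000934). With controls near 0 its size depends on the 0.1 added before taking logs, and it lay between 0.63 (1 added) and 2.91 over the alternatives, all of them called. The value of mRpL2 also ran from near 0 to a clear level among like libraries, from 0.00596 to 0.427 on high sugar in set 49-54. mRpL28 followed with 2.07 ± 0.51 (0.00717). Of the small subunit, mRpS5 had 0.965, 1.05 and 0.640 on high sugar and 0.362, 0.363 and 0.605 on the control diet, a change of 0.86 ± 0.27 (limma adjusted p = 0.0345). mRpS7 had 1.13, 1.38 and 1.41 on high sugar and 0.933, 0.812 and 1.02 on the control diet, a change of 0.46 ± 0.15 (0.0364). mRpL24, which starts large-subunit assembly in bacteria, ranged from 0.670 to 0.916 on high sugar and from 0.396 to 0.555 on the control diet, a change of 0.56 ± 0.19 (0.0467). None of the 5 overlapped between diets.

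The members that fell in set 55-63 were mRpL50, listed at 0 in all high-sugar libraries (limma adjusted p = 4.56e-05), and mRpL30. mRpL30 had 0.445, 0.475 and 0.287 on high sugar and 0.957, 0.848 and 0.550 on the control diet, with no overlap and a change of -0.81 ± 0.22 (log2, SE; limma adjusted p = 0.0140). mRpS35 (1.27 ± 0.62) and mRpL15 (-0.80 ± 0.39) followed among the largest and smallest changes and did not pass. Every high-sugar value lay above every control value for 10 members (12.9% of features), mRpL10, mRpL33, mRpL40, mRpL46 and mRpS25 beside the 5 that passed, and below for 3 (19.6% of features), mRpS30 beside mRpL30 and mRpL50. Fitted on this set alone, limma called 2 members. With 1 library left out, mRpL2 and mRpL50 stayed, and the calls ended of mRpL28 (replicate 55, adjusted p 0.0520), mRpL30 (55, 56 or 63, 0.0523 to 0.0835), mRpL24 (55, 56, 62 or 63, 0.0744 to 0.193), mRpS5 (55, 56, 61 or 62, 0.0917 to 0.140) and mRpS7 (55, 56, 62 or 63, 0.0744 to 0.140). Markers of other tissues moved here too. Of 10 midgut markers 3 fell, and the sums given above were lower on high sugar in every library of this set. Of 5 haemocyte markers 3 fell, with sums of 2.67 to 3.36 on high sugar and 1.72 to 4.39 on the control diet. Of 9 muscle markers 2 rose, and of 8 fat body markers 1 rose and 2 fell. The part of these tissues was not tested.

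In set 67-92, the 60100 r4 cross, the members' changes were mostly positive and few passed. Of 71, 56 were positive (78.9%, against 34.0% of all features, those at 0 throughout the set included). The median was 0.22 over members and -0.08 over features (log2). mRpL46 rose by 0.72 ± 0.20 (SE; limma adjusted p = 0.0158) and mRpS22 by 0.62 ± 0.18 (0.0179). Neither call held under every alternative. Fitted on this set alone, limma called mRpS22 (adjusted p = 0.0393) and mRpL19 (0.0468), and mRpL46 missed the threshold (0.0650). With the closest library pairs averaged, 67 with 83 and 75 with 91, mRpL46 passed (0.0388) and mRpS22 did not (0.0611), nor did mRpS22 without replicate 91 (0.0535). None fell, against 22.1% of all features called (6.27% higher and 15.9% lower); at an unadjusted p under 0.05, 7 were higher and 1 lower. mRpL4, a large-subunit protein, was next with 0.749, 1.17, 0.965 and 0.626 on high sugar and 0.517, 0.436, 0.743 and 0.595 on the control diet (limma adjusted p = 0.0510). mRpL9 (1.28 ± 0.55) and mRpS18B (0.84 ± 0.87) had the largest changes and mRpL13 (-0.47 ± 0.39), mRpL42 (-0.42 ± 0.35) and mRpS11 (-0.40 ± 0.38) the smallest, none of which passed. Groups did not overlap for 8 members above (mRpL12, mRpL19, mRpL22, mRpL38, mRpL46, mRpS14, mRpS18C and mRpS22; 6.97% of features) and 0 below (18.9% of features).

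One library stood apart in this set. High-sugar replicate 76 was the highest of the 8 libraries for 45 of 71 members (63.4%, against 17% of 9202 features). Its member median was 1.1, with 40 members at 1 or above. High-sugar replicates 75, 91 and 92 had member medians of 0.756, 0.823 and 0.691, and the control libraries 0.630 to 0.779. The cytosolic ribosomal protein median of replicate 76 was 170.6. It was 138, 149 and 118 in high-sugar replicates 75, 91 and 92, and between 113 and 129 in control libraries. Without replicate 76, 0 members were called in limma's test (mRpL46, adjusted p 0.0684; mRpS22, 0.0749), 46 were positive and the median was 0.12. By run, 67-76 gave 3 calls and a median of 0.36, and 83-92 gave 0 calls and a median of 0.10. Median-of-ratios scaling gave 7 higher and 63 positive, with a median of 0.38, but it also moved all features. Under it 9.41% of features were higher and 8.86% lower, with a median of 0, against the 6.27%, 15.9% and -0.08 given above. The share of members called higher was then 9.86%, near that of all features. The 9 muscle markers, none at 0, summed to 47.8, 34, 68.5 and 21.4 on high sugar and 17, 11.2, 17.1 and 18.1 on the control diet. Of these 9, 6 rose, as did 1 of 10 midgut markers, and 2 of 8 fat body markers fell. Their part was not tested.

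**Figure D4:**
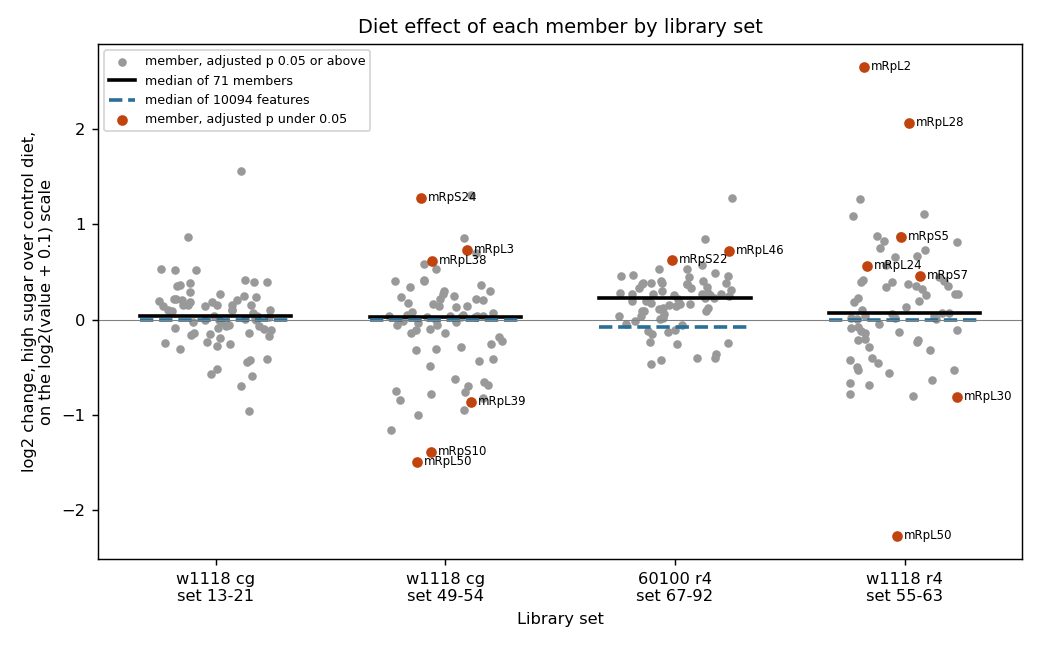
Diet effect (high sugar minus control, on the log2(value + 0.1) scale) of each of the 71 members (points, named where the adjusted p was under 0.05) by library set, with the member median (black) and the median of all features (dashed). In set 67-92, 56 of 71 members were above 0, and in set 13-21, 40 were; the sizes for mRpL50 in set 55-63 and mRpS10 in set 49-54, whose high-sugar libraries are at 0, depend on the added 0.1.

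Whether the diet effect itself differed between the 4 sets was tested in 1 joint test (limma, 3 contrasts). It passed for mRpL50 (adjusted p = 0.00226), mRpL30 (0.0169), mRpL2 (0.0214) and mRpS7 (0.0468), 5.63% of the members, against 21.6% of all features. mRpL30 was lower on high sugar in set 55-63. In set 67-92 it had 2.11, 3.65, 2.51 and 1.89 on high sugar and 1.62, 1.75, 1.60 and 2.18 on the control diet, and in sets 13-21 and 49-54 the diets overlapped. mRpS7 was higher on high sugar in set 55-63. It had 1.26, 1.70, 1.42 and 1.51 on high sugar and 1.65, 1.89, 1.57 and 1.97 on the control diet in set 67-92. The call of mRpS7 ended without any of 20 libraries (adjusted p up to 0.118), that of mRpL2 without replicate 62 or 63 (0.0552 and 0.0568) and that of mRpL30 without 55 or 63 (0.0581 and 0.0563).

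By driver, the diet effect in w1118 cg minus that in w1118 r4 passed for 3 members (4.23%, against 6.45% of all features, 3.98% higher and 2.47% lower). It was -2.64 ± 0.61 for mRpL2 (log2, SE; limma adjusted p = 0.0123) and 1.02 ± 0.27 for mRpL30 (0.0266). The size for mRpL2 again depends on the value added, from -3.01 to -0.61 over the alternatives. mRpL50 also passed (0.0332), with no size given because its w1118 r4 high-sugar libraries are listed at 0. For mRpL50 the w1118 cg side joins a set with a fall and a set without a call. In set 49-54 it fell on high sugar (limma adjusted p = 0.00156), as it did in w1118 r4. In set 13-21 its change was -0.24 and did not pass (limma adjusted p = 0.860). mRpS31 (1.09 ± 0.73), mRpL28 (-1.76 ± 0.62) and mRpL34 (-1.67 ± 1.47) complete the largest and smallest differences and did not pass. mRpL2 in w1118 cg ranged from 0.00596 to 0.427 on high sugar and from 0.00102 to 0.220 on the control diet, an overlap, whereas in w1118 r4 the diets lay far apart. The call of mRpL30 ended without replicate 55, 56 or 63 (adjusted p up to 0.0877) and that of mRpL50 without any of 7 libraries, 14, 20, 55, 57, 61, 62 and 63 (up to 0.0790), while that of mRpL2 stayed.

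By stock, the diet effect in 60100 r4 minus that in w1118 r4 passed for mRpL30, 1.26 ± 0.29 (log2, SE; limma adjusted p = 0.0176), and for mRpL50 (0.00573), 2.82% of the members against 3.24% of all features (1.68% higher and 1.56% lower). Quantile normalization gave 2 higher and 2 lower. mRpL2 (-2.15 ± 0.66), mRpL28 (-1.77 ± 0.67), mRpL23 (-1.07 ± 1.08) and mRpL9 (1.28 ± 0.84) had the other largest and smallest differences, and mRpS7 (limma adjusted p = 0.0510) came closest without passing. mRpL2 in 60100 r4 was at 1.45, 2.09, 1.80 and 1.08 on high sugar and 1.27, 1.08, 1.01 and 0.980 on the control diet. Without replicate 55, mRpL30 no longer passed by stock (adjusted p 0.0525). Both comparisons share the 6 libraries of set 55-63. The cross and the library set cannot be told apart, here or in the levels that follow.

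Levels between crosses were compared after median-of-ratios scaling over 5159 features, averaged over the diets. In 60100 r4, 31 members were higher and 2 lower than in w1118 r4 (46.5% of 71, against 37.7% of all features, 23.8% higher and 14% lower). The median difference was 0.61 over members and 0.06 over features (log2). The largest was that of mRpL9, whose bacterial counterpart projects from the surface of the large subunit. It had 1.71, 2.25, 1.92 and 1.32 on high sugar and 1.47, 1.32, 1.47 and 0.000669 on the control diet in 60100 r4, and at most 0.00353 in every w1118 library. Its difference was 3.48 ± 0.40 (log2, SE; limma adjusted p = 1.29e-06). With w1118 values near 0 this size depends on the 0.1 added, and it lay between 1.16 (1 added) and 3.94 over the alternatives. mRpL2 was higher by 2.31 ± 0.34 (0.82 to 2.46 over the alternatives) and mRpL30 by 1.57 ± 0.16 (2.64e-07). The others called higher were mRpL55 (1.95), mRpL45 (1.94), mRpS14 (1.68) and mRpL13 (1.65), then mRpL1, mRpL10, mRpL12, mRpL15, mRpL19, mRpL22, mRpL27, mRpL28, mRpL36, mRpL37, mRpL38, mRpL40, mRpL41, mRpL44, mRpL46, mRpL48, mRpL50, mRpL52, mRpS2, mRpS7, mRpS9, mRpS22, mRpS26 and mRpS33, between 0.34 and 1.53.

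The 2 lower in 60100 r4 were mRpS5, by a log2 difference of -1.76 ± 0.19 (SE; limma adjusted p = 6.25e-07), and mRpL33, -1.20 ± 0.16 (9.44e-06). mRpS5 had 0.0880 to 0.365 on high sugar and 0.0798 to 0.149 on the control diet in 60100 r4. In w1118 r4 it had 0.640 to 1.05 on high sugar and 0.362 to 0.605 on the control diet. Within high sugar the stocks differed for 29 members higher and 2 lower (32.3% of features, 21.7% higher and 10.6% lower) and within the control diet for 11 and 2 (17.4% of features, 10.3% higher and 7.14% lower). Many genes of the cytosolic ribosome and the respiratory chain were also higher in 60100 r4. Of cytosolic ribosomal proteins, 49 of 81 were higher and 8 lower (median 0.44), and of respiratory chain subunits 41 of 69 were higher and 4 lower (median 0.59). Markers of other tissues differed as well, averaged over the diets. Of 5 haemocyte markers 1 was higher and 1 lower (median -0.28). Within high sugar 2 of these 5 were higher and 0 lower, and within the control diet 1 was higher and 2 lower. Of 4 neuron markers 0 were higher and 1 lower (median 0.12). Of 9 muscle markers 6 were higher and 1 lower, with sums of 11.2 to 68.5 in 60100 r4 and 5.85 to 10.5 in w1118 r4. Of 7 salivary gland markers 6 were higher (median 1.87), with sums of 159 to 754 in 60100 r4 and 15.1 to 205 in w1118 r4. Of 10 midgut markers 3 were higher and all were positive (median 1.16), with sums of 9.93 to 115.6 in 60100 r4 and 1.07 to 75.6 in w1118 r4. That direction was not the same on both diets. Within high sugar all 10 midgut markers were positive (6 called higher, median 3.91). Within the control diet 8 were negative and 2 positive (2 called higher, median -0.75). Their part was not tested.

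**Figure D5:**
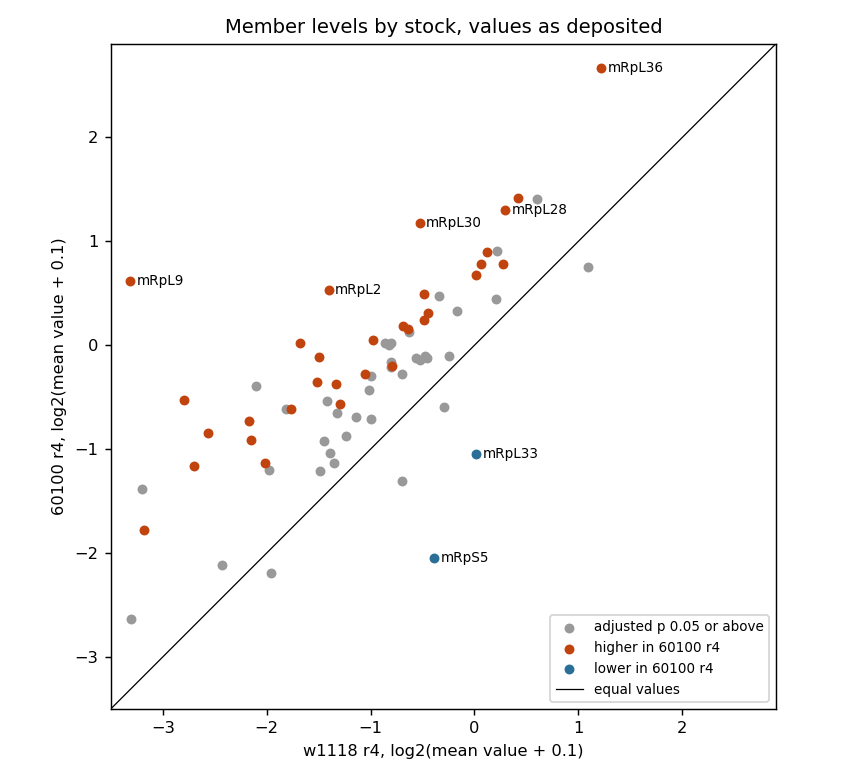
Mean level of each of the 71 members in 60100 r4 (y axis) against w1118 r4 (x axis), as log2(value + 0.1) of the values as deposited, with the line of equal values and colours for the limma call after median-of-ratios scaling. The 31 members called higher lie above the line, mRpL9 farthest, and mRpS5 and mRpL33 lie below it.

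In w1118 cg, 10 members were higher and 16 lower than in w1118 r4 (36.6% of 71, against 46.7% of all features, 27.2% higher and 19.5% lower), with a median of -0.11 over members and 0.08 over features. Quantile normalization gave 9 higher and 27 lower. mRpL33 (1.04 ± 0.15; limma adjusted p = 1.01e-05), mRpS5 (1.15 ± 0.18; 1.91e-05), mRpL32 (1.24), mRpL13 (1.18) and mRpL55 (1.17) were higher, as were mRpL17, mRpL20, mRpL35, mRpL37 and mRpL50 (0.56 to 0.93). mRpL36 (-1.91 ± 0.31; 3.71e-05), mRpL28 (-1.01), mRpS10 (-0.91) and mRpS22 (-0.83) were lower, as were mRpL1, mRpL3, mRpL4, mRpL12, mRpL22, mRpL38, mRpL40, mRpL46, mRpL54, mRpS9, mRpS26 and mRpS34 (-0.86 to -0.32). Members also differed between the sets of 1 cross. In set 13-21, 18 members were higher and 6 lower than in set 49-54 (33.8% of 71, against 37.2% of all features, 24% higher and 13.2% lower), with mRpL34 (2.93), mRpL55 (2.40) and mRpL54 (2.20) highest and mRpL12 at -0.70. With set 49-54 as the only w1118 cg set, 2 members were higher and 9 lower than in w1118 r4. The differences of mRpL35 and mRpL55 then turned negative. With set 13-21 as the only w1118 cg set, that of mRpL54 turned positive. The 7 salivary gland markers summed to 2177 to 6045 in set 13-21 and to at most 754 in any other library, and their part in these differences was not tested.

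By their place in the ribosome, the 45 large-subunit members tested had a median change with diet across sets of 0.08 (log2; 2 rose and 2 fell), and the 26 small-subunit members one of 0.15 (0 rose and 0 fell). The members were also split by whether their number is one of a bacterial ribosomal protein. The split goes by number alone, and some fly names do not follow bacterial homology. Of 42 with such a number, 0 rose and 1 fell, and of the other 29 tested, 2 rose and 1 fell. The central protuberance list held both that rose, among 7 (28.6%, against 23.1% of all features called in either direction; median 0.15), and nothing is read from a share that near. Neither the 3 stalk members tested (median 0.10) nor the 4 listed for the exit tunnel, mRpL22, mRpL23, mRpL24 and mRpL45 (median 0.24), held a call, and 1 listed stalk protein, mRpL53, was at 0.

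Mitochondrial ribosomal proteins with other names did not pass. tko, the counterpart of bacterial S12 in the decoding centre, had a change of 0.12 ± 0.14 (log2, SE; limma adjusted p = 0.550). bonsai, the counterpart of bacterial S15, had one of 0.19 ± 0.12 (0.275), and Rlc1, now named mRpL47, one of -0.61 ± 0.50 (0.410). Around the ribosome, 1 of 11 mitochondrial translation factors fell (CG4567, the elongation factor mEFG1, -0.38; 0.0483) and 0 rose. Of 16 mitochondrial tRNA synthetases and related proteins, 2 rose and 1 fell: CG31133 (Slimp) by 0.64 ± 0.09 (4.34e-05), CG16912 (TyrRS-m) by 0.38 (0.00436), and CG31739 (AspRS-m) with -0.38 (0.0403). Of 14 genes of mitochondrial DNA and RNA upkeep, 0 rose and 1 fell, the protease CG8798 (Lon, -0.35; 0.0443). The shares called in these lists were, in order, 9.09%, 18.8% and 7.14%, all below the 23.1% of all features.

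The cytosolic ribosome, which makes the members themselves, and the respiratory chain, whose core subunits the mitochondrial ribosome makes, gave these counts. Of 81 cytosolic ribosomal proteins tested, 23 rose and 0 fell (28.4%, median 0.21), RpL4 by 0.50. Of 69 nuclear-encoded respiratory chain subunits, 12 rose and 0 fell (17.4%, median 0.24), ND75 by 0.60. Of all features 23.1% were called, 7.69% higher and 15.4% lower. The median change by set, in the order 13-21, 49-54, 55-63 and 67-92, was 0.04, 0.03, 0.07 and 0.22 for the mitochondrial ribosome, beside -0.15, 0.35, 0.36 and 0.31 for cytosolic ribosomal proteins and -0.20, 0.22, 0.42 and 0.28 for the respiratory chain.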

How the data were processed

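Per the labels' protocols, RNA of 26 fat body libraries was freed of ribosomal RNA with RiboZero and sequenced on an Illumina HiSeq. Cufflinks 1.1.0, TopHat 1.3.2, Bowtie 0.12.7 and the build dm3 are listed in the submitters' processing notes; no dm3 genome was used here. The values deposited by the authors are a ratio of length-scaled expression to the upper quartile of the same library. Within a set, every library had the same number of features at or over 1 (2402, 2080, 2117 and 2464 in sets 13-21, 49-54, 55-63 and 67-92). Depth is unknown. Because each set was scaled over its own features, diet was compared within sets, and levels were tested only after median-of-ratios scaling. Values printed for single members, marker sums and the values in the figures are as deposited, with each set on its own scale.

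Values were taken as log2(value + 0.1). Features above 0 in at least 1 library (10094) were tested two-sided with limma 3.58.1 (trend) in R 4.3.3, and p values were adjusted by Benjamini-Hochberg. All adjusted p values are limma's. Set contrasts used 8 group means and 1 spread over all 26 libraries. In simulated data for the diet effect across sets on 10094 features, 56.7% of 67 changes of 0.5, 79.1% of 67 of 1 and 90.9% of 66 of 2 (log2) were recovered, and 5.03% of calls were unchanged features. The changed features had a mean of at least 0.1 and moved by the same amount in every set, with normal noise on the log scale. How far these rates hold for members near 0, or for effects that differ between sets, was not tested. Whether replicates are separate groups of larvae is not in the labels, and p values measure the spread between libraries. The members and lists were chosen with earlier results of these data known. Named were every member that passed (values in every library for the 8 with the smallest adjusted p for diet across sets), the 3 largest and 3 smallest changes per diet contrast, the 5 highest and lowest levels, tko, bonsai and up to 3 genes of each other list. All 72 members matched RefSeq symbols. Exon overlap was read from BDGP6, and no coordinates or sequences are given.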

Additional observations from a re-analysis of the deposited data

Results flagged for a closer look

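In groups of 4 to 6 libraries, 22 of 219 groups checked over 56 members held a library far from its nearest neighbour by Dixon's criterion. Chance alone gives such a gap in about 1 in 20 groups whose libraries vary alike. In 60100 r4, whose groups of 4 come from both runs, there were 8 among 110 groups. In w1118 cg there were 14 among 109, and that rate is no guide there, since the groups of 6 join sets 13-21 and 49-54, each with its own scale. In high-sugar 60100 r4, replicate 76 stood above the other 3 for mRpL16 (1.23), mRpS35 (1.26) and mRpS5 (0.365). In control 60100 r4, replicate 68 stood above for mRpL16 (0.911) and mRpL36 (7.27) and below for mRpL40 (0.731). Replicate 84 stood below for mRpL9 (0.000669, where the next value was 1.32) and above for mRpS11 (0.407). In high-sugar w1118 cg, whose 6 libraries come from both sets, replicate 53 stood apart for mRpL16 (0.00825), mRpL28 (1.19) and mRpL36 (0), replicate 52 for mRpL2 (0.427), replicate 21 for mRpS11 (0.0616) and replicate 54 for mRpS17 (0). In control w1118 cg, replicate 51 stood apart for mRpL28 (0.620), mRpL40 (0.452), mRpL48 (0.0499) and mRpL9 (0.00353), replicate 13 for mRpL45 (0.0364) and mRpL46 (0.158), replicate 14 for mRpL27 (0.732) and replicate 50 for mRpL15 (0.304).

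Diet effects that differed between sets or crosses were those given above, by limma's adjusted p over 10094 features. Between the 4 sets they were mRpL50 (0.00226), mRpL30 (0.0169), mRpL2 (0.0214) and mRpS7 (0.0468). Between w1118 cg and w1118 r4 they were mRpL2 (0.0123), mRpL30 (0.0266) and mRpL50 (0.0332). Between 60100 r4 and w1118 r4 they were mRpL50 (0.00573) and mRpL30 (0.0176).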

How the results depend on the processing

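Across sets, the 4 calls became 7 with a pseudocount of 1, 1 with a mean of at least 1 (which leaves 12 members), 8 without set 13-21, 2 without set 49-54, 55-63 or 67-92, and 2 with run 83-92 alone for 60100 r4. In set 49-54 the 6 calls became 3 with a pseudocount of 1, 0 with a mean of at least 1 and 1 on that set alone. In set 55-63 the 7 became 3 with a mean of at least 1 and 2 on that set alone. In set 67-92 the 2 became 5 with a pseudocount of 1, 0 with a mean of at least 1, 7 with median-of-ratios scaling, 1 with the closest library pairs averaged (67 with 83, 75 with 91) and 0 with run 83-92 alone. The joint test gave 2 calls with a mean of at least 1. By driver, a pseudocount of 1 and a mean of at least 1 each gave 1. By stock, quantile normalization gave 4 and either run alone 1. For levels, a mean of at least 1 gave 6 by driver and 10 by stock, and set 49-54 alone 11 by driver. Leaving out each library gave 3 to 7 calls across sets (7 without replicate 14), 0 to 1 in set 13-21, 2 to 5 in set 49-54 (2 without replicate 52, 3 without 51), 2 to 7 in set 55-63 (2 without 55, 3 without 56, 4 without 63), 0 to 5 in set 67-92 (0 without 76, 1 without 91, 5 without 92), 2 to 5 in the joint test, 1 to 4 by driver and 1 to 4 by stock (each lowest without 55; 4 by stock without 76), 22 to 31 for levels by driver and 30 to 40 by stock. Of 87 calls of named members, 39 stayed past the threshold with their sign under every alternative. Signs turned for mRpS11 in set 67-92 (0.17 without replicate 84, 0.16 with run 67-76 alone; -0.60 to 0.17 over libraries left out), mRpL23 by stock (0.57 without replicate 56; -2.01 to 0.57) and, in level by driver, mRpL35 (-0.10) and mRpL55 (-0.025) with set 49-54 alone and mRpL54 (0.24) with set 13-21 alone. The cause was not tested. The runs of 60100 r4 as its only run were alternatives chosen after seeing the data. No paired analysis was possible because no replicate number occurs in more than 1 group. Unknown depth limits what a value near or at 0 can show.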

Other observations

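Some members jumped between near 0 and a clear level among libraries of 1 set and diet. Of 71 members, 8 had at least 1 library above 0 but below 0.01 and another at 0.3 or above in the same set and diet (11.3%, against 3.95% of 7030 features that reached 0.3). The thresholds were chosen after seeing the values. The members were mRpL2, mRpL9, mRpL16, mRpL18, mRpL34, mRpL45, mRpS11 and mRpS29. In control libraries of 60100 r4, mRpL9 had 1.47, 1.32, 1.47 and 0.000669. Of the 8, 6 share exon bases with another gene in BDGP6, as do 35 of the other 63. In all, 42 of the 72 members share exon bases with another gene, and 2 share at least 50% of theirs, mRpS24 and mRpL53.

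The closest library pairs were 67 with 83 and 75 with 91, both of 60100 r4 across its 2 runs, with an SD of log2 differences of 0.295 and 0.355. The next pair, 61 with 62, had 0.411.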
